A study of Mus musculus with 2 samples.

Results

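CpG islands that lie away from genes were followed at single-cytosine resolution in mouse myotubes. An island was a run of GRCm38 sequence 200 bp long or longer whose GC content reached 50% and whose observed CpG count reached 0.6 of that expected from its base composition. Intergenic islands were those on the 19 autosomes that overlapped no GENCODE gene and lay more than 2 kb from every annotated transcription start site (TSS). An island entered if at least 5 of its CpG cytosines, outside the MspI (CCGG) and TaqI (TCGA) sites, had 5 reads or more in both libraries. This gave 4683 intergenic islands out of 24777 covered islands on autosomes, and out of 23863 intergenic islands in the genome sequence whether covered or not. Of the 4683, 2785 had at least 50% of their bases soft-masked as repeats and are described apart as repeat-masked. The other 1898 had under 50% soft-masked and are called not repeat-masked, or without repeats for short. Only 559 of them held no soft-masked base at all. Promoter and gene-body islands are named in the same way. No measured methylation value entered this choice.

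The DNA came from C3H myotubes, multinucleate muscle cells that had formed in culture from mouse myoblasts. One library came from cells given a control small interfering RNA (siCon) and one from cells in which H19, a long non-coding RNA, was targeted by its own small interfering RNA (siH19), and in both cases DNA was taken 48 h after transfection. Both libraries were made by reduced representation bisulfite sequencing (RRBS), in which restriction fragments are sequenced after bisulfite has turned unmethylated cytosine into a base read as T. With 1 library per group and no replicates, the knockdown, the culture and the library preparation cannot be told apart, and RRBS reads no RNA, so the H19 level was not checked here.

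A CpG island is a stretch where CpG, which is scarce in most of a mammalian genome, has been retained. Islands at gene starts are mostly free of methylation. Those far from known genes, often called orphan islands, can mark unannotated or tissue-restricted starts and distal control elements. H19 is an imprinted RNA abundant in fetal tissue and muscle, and the study asked whether its loss alters DNA methylation through SAHH, the enzyme that removes the by-product inhibiting methyltransferases.

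To show what was read, 7 stretches of GRCm38 are printed 5′ to 3′ on the plus strand, with the CpGs covered in both libraries in capitals. The first 3 are the stretches richest in covered CpGs from an unmethylated, a partly methylated and a methylated island. The unmethylated and the methylated island had the most covered cytosines of their class. The partly methylated island had the most among islands at 30 to 70% in both libraries. These 3 stretches lie at chr9:32032400-32032668 (nearest TSS that of Gm47481), chr11:21993150-21993439 (Otx1) and chr2:61815307-61815553 (Tbr1). The other 4 hold the covered CpGs of the called islands with the lowest adjusted p in each direction among those named below, with chr3:96474931-96475040 (Gm43534) and chr3:115174939-115175132 (Gm18429) higher in siH19, and chr9:98973123-98973171 (Faim) and chr2:9896006-9896076 (Gata3) lower. The covered CpGs of these 4 islands lie in 49 to 194 bases, which for that near Gm18429 is most of the island.
Island near Gm47481: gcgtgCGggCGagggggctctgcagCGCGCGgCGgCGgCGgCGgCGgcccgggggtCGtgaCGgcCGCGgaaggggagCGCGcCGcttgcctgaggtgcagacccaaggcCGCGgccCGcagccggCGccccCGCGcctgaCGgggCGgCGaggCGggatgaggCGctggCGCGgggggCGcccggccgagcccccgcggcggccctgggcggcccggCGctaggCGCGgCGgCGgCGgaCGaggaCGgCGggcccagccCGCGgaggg
Island near Otx1: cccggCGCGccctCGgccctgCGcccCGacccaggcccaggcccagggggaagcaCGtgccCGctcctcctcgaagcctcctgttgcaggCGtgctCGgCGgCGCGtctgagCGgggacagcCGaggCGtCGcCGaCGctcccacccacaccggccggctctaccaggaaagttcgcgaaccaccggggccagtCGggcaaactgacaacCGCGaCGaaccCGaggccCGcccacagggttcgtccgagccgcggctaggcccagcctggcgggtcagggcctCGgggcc
Island near Tbr1: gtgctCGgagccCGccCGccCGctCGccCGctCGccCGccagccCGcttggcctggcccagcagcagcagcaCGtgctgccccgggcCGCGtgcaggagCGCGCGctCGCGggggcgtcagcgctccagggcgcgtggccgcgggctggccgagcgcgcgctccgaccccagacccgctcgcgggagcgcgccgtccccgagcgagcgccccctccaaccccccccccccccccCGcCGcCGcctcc
Island near Gm43534: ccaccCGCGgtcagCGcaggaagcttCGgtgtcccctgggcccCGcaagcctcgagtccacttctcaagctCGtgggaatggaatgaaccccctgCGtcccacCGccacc
Island near Gm18429: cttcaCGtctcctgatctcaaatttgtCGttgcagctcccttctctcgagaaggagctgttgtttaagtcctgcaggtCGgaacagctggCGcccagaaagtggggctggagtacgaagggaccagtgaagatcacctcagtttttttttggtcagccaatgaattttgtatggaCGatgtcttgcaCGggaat
Island near Faim: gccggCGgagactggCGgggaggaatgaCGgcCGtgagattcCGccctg
Island near Gata3: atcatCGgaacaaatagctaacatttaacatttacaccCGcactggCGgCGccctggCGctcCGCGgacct

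The siCon library held 5453019 cytosine entries with 104999613 reads summed over them and a median depth of 12, and the siH19 library held 5266846 entries with 106372792 reads and a median depth of 13. In the islands without repeats, 30560 cytosines were compared, and an island had a median of 10 cytosines and of 272 reads in siCon and 268.5 in siH19. RRBS reached 20.5% of the 9272 intergenic islands without repeats. Those reached were longer, with a median of 401 bp against 218 bp in the 7374 not covered, so the values below describe the longer ones. The reads of an island are summed over its cytosines, so a read that spans several cytosines is counted at each of them, and an island's sum exceeds its number of sequenced fragments. Intervals are 95% intervals of these sums that take every count as separate. They are therefore narrower than the counting error of the fragments, and several fragments can also stem from 1 molecule, since no molecular identifier was used.

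The intergenic islands held every level of methylation, from none to full. The level of an island was the share of methylated reads over all its cytosines, and islands were called unmethylated under 10%, methylated from 70%, and partly methylated between. In siCon 451 of 1898 islands (23.8%) were unmethylated, 987 (52.0%) partly methylated and 460 (24.2%) methylated. In siH19 the numbers were 436 (23.0%), 1002 (52.8%) and 460 (24.2%). The median level was 36.9% in siCon and 37.6% in siH19, with the middle 50% of islands between 11.3% and 69.4% in siCon and between 11.8% and 68.9% in siH19. Islands at promoters and in gene bodies each leaned to one end. Of 14418 promoter islands, within 1 kb of a TSS and without repeats, 68.2% were unmethylated and 7.80% methylated in siCon, at a median level of 1.86%. Of 3324 gene-body islands without repeats, 8.60% were unmethylated and 53.6% methylated, at a median of 74.1%. These are descriptions and no test was made between the classes. The unmethylated share in siCon was 1.61% when the cytosines of the restriction sites were kept, and 41.4% of 561 islands from another scan of the genome that scores each CpG, so the share holds for these islands and these cytosines alone.

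**Figure D1:**
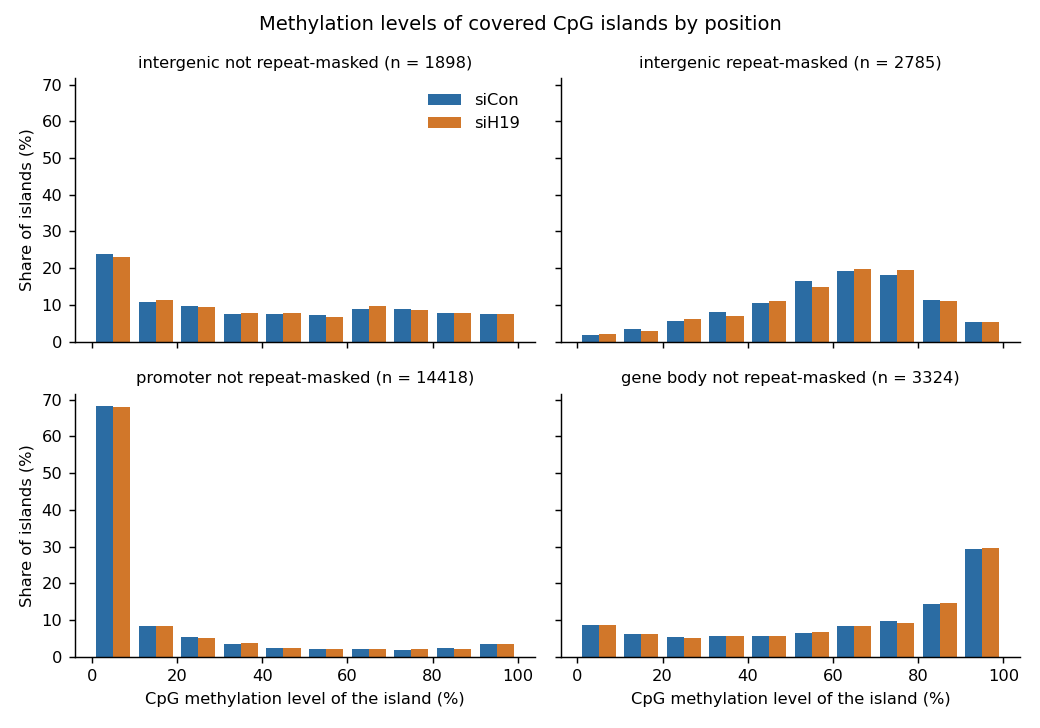
Share of covered CpG islands (%, vertical axis) in each 10-point bin of methylation level (%, horizontal axis), with siCon in blue and siH19 in orange. The panels hold intergenic islands not repeat-masked and repeat-masked, and promoter and gene-body islands not repeat-masked. Intergenic islands not repeat-masked fill every bin, with 23.8% in the lowest bin in siCon, against 68.2% for promoter islands.

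Within an island the measured levels of the cytosines differed most where the island was partly methylated. The median SD between the cytosines of an island was 4.13 points in unmethylated, 22.7 points in partly methylated and 16.6 points in methylated islands in siCon, and 4.09, 21.9 and 16.1 points in siH19. In 106 of 987 partly methylated islands, 1 cytosine or more stood at no methylation and another at full methylation in siCon. Counting error was not removed from these SDs, and it is largest at intermediate levels. The level limits of the unmethylated and methylated classes also restrict the spread within them. The order of the classes alone therefore does not show that cytosines of partly methylated islands are more unlike. A cytosine at no or full methylation can rest on few reads. Whether an intermediate island level averages over unlike cytosines was not tested.

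Longer and more GC-rich islands were more often unmethylated. The unmethylated share in siCon was 15.3% of 701 islands of 200 to under 300 bp, 18.4% of 537 of 300 to under 500 bp, 35.0% of 549 of 500 to under 1000 bp and 47.7% of 111 islands of 1000 bp or more. The methylated share went the other way, from 31.5% in the shortest bin to 4.50% in the longest. By GC content, 15.6% of 1237 islands with 50 to 55% GC and 53.9% of 102 islands with 65% or more were unmethylated. By observed to expected CpG ratio, the share was 18.1% of 996 islands between 0.6 and 0.65 and 47.4% of 95 islands between 0.8 and 0.9. Across the 1898 islands, which share 1 library and whose features go together, Spearman's rho with the siCon level was -0.358 for GC content, -0.297 for length and -0.211 for the CpG ratio. The same values in siH19 were -0.361, -0.295 and -0.215.

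Islands far from genes were less often unmethylated. The unmethylated share in siCon was 30.0% of 333 islands 2 to 5 kb from a TSS, 30.4% of 424 at 5 to 10 kb, 19.7% of 899 at 10 to 50 kb, 21.7% of 180 at 50 to 100 kb and 9.68% of 62 beyond 100 kb. The islands also became shorter with distance, from a median of 493 bp in the nearest bin to 284 bp in the farthest, and the part of length in this order was not tested. Just inside the distance limit, at 2 to 2.5 kb, 30.5% of 59 islands were unmethylated, and just outside it, at 1 to 2 kb and overlapping no gene, 41.8% of 177. At the limit on cytosines, 14.9% of 114 islands with 5 covered cytosines were unmethylated, and 17.4% of 501 islands with 4, which did not enter. Gene models of RefSeq, a separate annotation, overlapped or came within 2 kb of 460 of the 1898 islands, of which 31.7% were unmethylated, against 21.2% of the 1438 clear of both annotations.

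**Figure D2:**
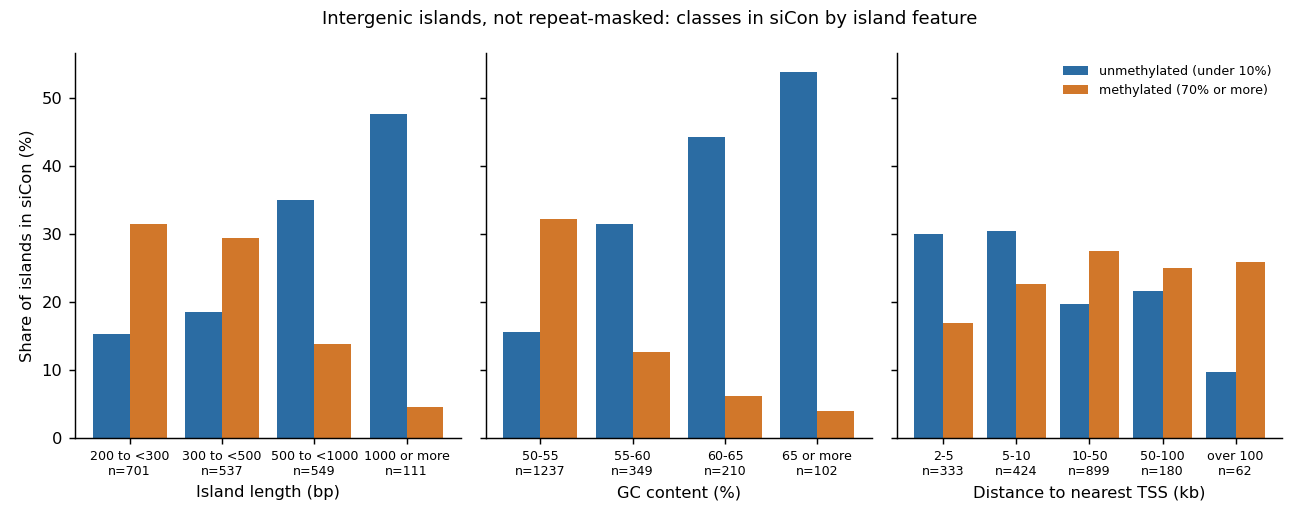
Share of not repeat-masked intergenic islands that were unmethylated (blue) or methylated (orange) in siCon (%, vertical axis) by island length (bp), GC content (%) and distance to the nearest TSS (kb), with the number of islands under each bin. The unmethylated share runs from 15.3% to 47.7% by length, from 15.6% to 53.9% by GC content and from 30.0% to 9.68% by distance.

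The island edge was a boundary for unmethylated islands and, in the opposite direction, for methylated ones. Of 158 unmethylated islands with at least 5 covered cytosines within 2 kb outside the island, 142 had flanks above the island level, at a median of 24.4% in the flanks and 2.38% inside. Of 141 methylated islands with covered flanks, 32 had flanks above the island, at a median of 65.7% outside and 83.4% inside. The 322 partly methylated islands had 40.7% outside and 33.1% inside. By distance, the mean level of cytosines of unmethylated islands in siCon was 5.73% in the last 50 bp inside, 17.8% in the first 200 bp outside and 35.9% at 400 to 600 bp. Methylated islands went from 83.4% to 67.1% across the same edge. siH19 gave 5.97% and 17.9% around the edge of unmethylated islands, and 83.8% and 67.8% around that of methylated islands. Islands entered these classes by their own level, so some return towards the middle outside the island would appear in any set chosen so.

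**Figure D3:**
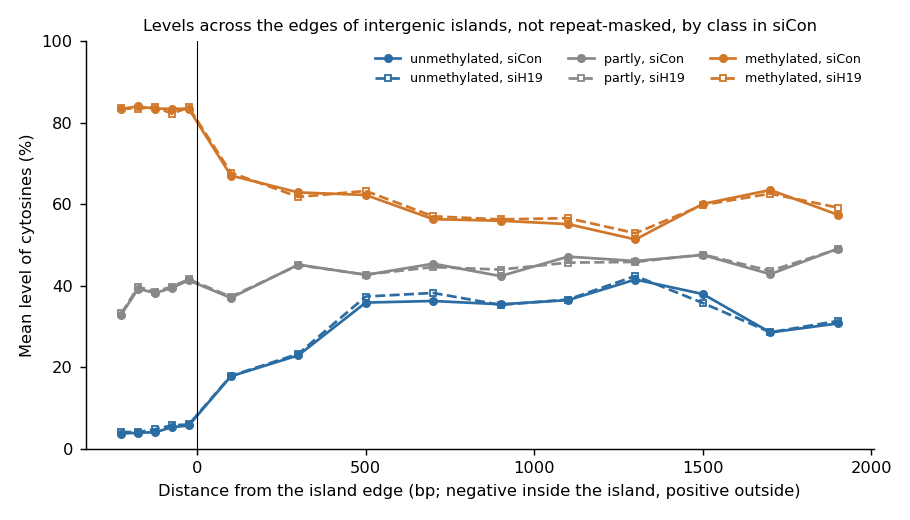
Mean methylation level of cytosines (%, vertical axis) by distance from the island edge (bp, negative inside) for not repeat-masked intergenic islands, grouped by their siCon class, with siCon as filled circles and siH19 as open squares. Unmethylated islands rise from 5.73% inside the edge to 17.8% in the first bin outside in siCon, and methylated islands fall from 83.4% to 67.1%.

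Short motifs were counted on both strands in the central 200 bp of each island. The GC box GGGCGG, a site read by Sp1-type factors, stood in 35.9% of unmethylated, 23.7% of partly methylated and 13.3% of methylated intergenic islands, and in 39.1% of all 24777 covered islands. The CTCF core AGNNGGCGC stood in 13.1%, 5.88% and 2.61% of the same classes and in 10.5% of all islands. These motifs are GC-rich and can overlap each other, and GC content differed between the classes, at medians of 56.3%, 52.8% and 51.5%. The myogenic E-box CAGCTG, which holds no CpG, was found in 11.8%, 13.6% and 12.6% of the classes and in 11.7% of all islands. The ETS letters CGGAAG stood in 14.4%, 12.7% and 14.1%, against 19.1% of all islands. The NRF1 letters GCGCATGC were rare, in 2.00%, 1.32% and 3.48%, as were TGACGTCA (CRE), in 0.665%, 1.11% and 0.870%, and AAGATGGCG (YY1), in 0.222%, 0.405% and 0.652%, against 1.49%, 0.787% and 5.08% of all islands. A match describes the letters and not a bound site.

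Neighbouring intergenic islands had more similar levels than islands farther apart. The median gap in siCon was 11.1 points for 85 pairs within 1 kb, of which 53 shared a class, and 24.7 points for 262 pairs 20 to 100 kb apart, of which 118 did. By chromosome, the unmethylated share ran from 15.4% of 39 islands on chromosome 16 to 33.7% on chromosome 9. The nearest TSS belonged to a protein-coding gene at 795 islands, of which 28.2% were unmethylated, to a lincRNA at 376 (18.9%) and to a processed pseudogene at 360 (72 of them unmethylated).

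The 5 unmethylated islands with the most covered cytosines, 104 to 150 each, stood between 0.407% and 7.32% in siCon, and all but that near Rpl30-ps6 overlapped or came within 2 kb of a RefSeq gene model. The island at chr9:32031856-32033256, 11.6 kb from the TSS of the pseudogene Gm47481 and 1401 bp long, had 40 methylated of 3652 reads (1.10%, interval 0.805 to 1.49%) in siCon and 49 of 5071 (0.966%, 0.732 to 1.28%) in siH19 over 150 cytosines. The island at chr1:86487085-86488199, 13.4 kb from Rpl30-ps6, had 18 of 4422 reads (0.407%) and 13 of 3589 (0.362%) methylated. The island at chr11:98338360-98339505, 8.71 kb from Neurod2, a neuronal differentiation factor, stood at 4.29% and 4.44%. The island at chr6:91843167-91844179 near Grip2, a scaffold of glutamate receptors, stood at 7.32% in siCon and 5.35% in siH19, which made a difference of -1.84 points (-3.15 to -0.524) under the size asked for a call. Pax3, the paired-box factor of muscle precursors, had an island 18.7 kb from its TSS at chr1:78215821-78217819 with 5.97% and 5.46%. A shorter island 3.03 kb from the Pax3 TSS, at chr1:78200164-78200886, had 192 of 317 reads methylated in siCon and 194 of 353 in siH19, so the nearer island was the more methylated of the pair. With the same weight for a cytosine in both libraries, the difference of this nearer island was 4.79 points (-2.03 to 11.6), of the other sign than by reads. Here and below, such a weight is shared by the 2 libraries and is larger at cytosines with more reads. It is not equal between cytosines.

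The 5 partly methylated islands named here had the most cytosines among islands at 30 to 70% in both libraries. Partly methylated islands of lower level were left out of this choice. The closest TSS was that of a protein-coding gene at 2 of the 5 and of an RNA gene at 3. The island at chr11:21992716-21994444, 7.17 kb from Otx1, a homeobox gene of the forebrain, held 61.6% (59.5 to 63.8%) in siCon and 66.9% (64.7 to 69.2%) in siH19 over 92 cytosines, but 63.3% and 65.2% when each cytosine had the same weight in both, where the interval of the difference was -1.16 to 4.76 points. The island at chr11:57827346-57828274, 3.87 kb from Hand1, a heart and limb factor, moved from 44.3% to 51.6% by reads but by 0.269 points (-2.30 to 2.84) with the same weight per cytosine. The level by reads also moves when reads shift between cytosines of unlike level, which the second measure leaves out. The island at chr6:52252315-52254000, 3.02 kb from the small RNA gene Gm27543 and 6.51 kb from the homeobox gene Hoxa11, had 912 of 2699 reads methylated in siCon and 804 of 2012 in siH19, a difference of 5.25 points (2.48 to 8.02; Cochran-Mantel-Haenszel chi-square test, adjusted p = 0.0115) that was again under the size asked for a call. The islands near Gm49539 on chromosome 15 (54.7% and 55.1%) and 4.58 kb from Foxd3, a neural crest factor, on chromosome 4 (57.3% and 60.6%) gave differences whose intervals held 0.

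Of the methylated islands with the most cytosines, that at chr2:61814930-61816340, 8.66 kb from Tbr1, a T-box gene of the cerebral cortex, stood at 83.3% and 81.0%. The island at chr17:84096414-84097208 near the lincRNA AC132455.3 had 88.3% in siCon and 93.8% in siH19 by reads, and a difference of 1.79 points (-0.710 to 4.29) with the same weight per cytosine. The island at chr15:86194574-86195459 near Cerk, the ceramide kinase gene, had 89.2% and 87.7%, and 34.0% of its bases were soft-masked. None of these 3 islands was called.

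Islands whose nearest TSS was that of a developmental transcription factor numbered 99, near 61 genes. Their median level was 23.8% in siCon and 24.3% in siH19, against 38.2% and 38.9% for the 1793 islands near genes of no list. Of the 99, 24 (24.2%) were unmethylated and 9 (9.09%) methylated in siCon, against 426 and 448 of the 1793. On the list, methylated islands were the rarer of the extremes, while the unmethylated share was near that of the other islands. Islands of a single gene could differ widely. The 5 islands nearest to Gbx2, a homeobox gene of the hindbrain boundary, ran from 7.49% to 86.2% in siCon, and the 3 of Dlx2 from 0.980% to 92.3%, while the 3 of Msx2 kept between 23.6% and 38.9%. Of the 99, 1 was called lower in siH19, near Gata3, and none higher, where 0.391% of all islands tested were called lower and 0.585% higher. With the nearest protein-coding TSS in place of any TSS, 203 islands belonged to the list, of which 1 was called higher and 1 lower. The list does not hold Uncx, a homeobox gene with a called island described below.

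Myogenic regulators were the nearest genes of 11 islands near 6 genes, of which 3 were unmethylated and 3 methylated in siCon, and none was called. The largest difference of the 11, -19.3 points (-30.8 to -7.86) over 7 cytosines, was at an island 196 kb from Eya1. It had 62 of 82 reads methylated (75.6%) in siCon and 79 of 125 (63.2%) in siH19 (CMH chi-square adjusted p = 0.0638). Lbx1, needed by migrating limb muscle precursors, had 3 islands along chromosome 19. Their levels went up with distance from its TSS, with 8.73% and 8.10% at 3.80 kb, 24.9% and 29.3% at 6.09 kb, and 70.7% and 73.0% at 11.4 kb. Of the 2 islands near Pax7, the satellite cell factor, that 17.6 kb away stood at 73.5% and 72.8%, and that 18.9 kb away had 32 of 127 reads methylated (25.2%) in siCon and 27 of 74 (36.5%) in siH19, a difference of 8.13 points over 5 cytosines that was not called (CMH chi-square adjusted p = 0.526). Of the imprinted genes listed, only Cdkn1c, a cell-cycle inhibitor, was nearest to an island, 3.70 kb away at chr7:143464749-143465587, with 72.0% (66.3 to 77.1%) and 75.4% (71.6 to 78.9%). With the nearest protein-coding TSS in place of any TSS, 10 islands near 6 imprinted genes had a median of 65.4% in siCon and 68.5% in siH19, and none was called.

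Between the libraries the islands kept their levels closely. Of the 1898, 1731 (91.2%) were in the same class in both libraries, none passed from unmethylated to methylated or back, and of the 167 that changed class 129 stood within 5 points of a class limit in siCon. The difference, siH19 minus siCon with a weight per cytosine that was the same in both libraries, had a median of 0.140 points, with the middle 50% between -1.82 and 2.45. It was positive at 999 islands, negative at 891 and within 5 points at 1490 (78.5%). The median was positive on 16 of 19 chromosomes, from -0.212 points on chromosome 8 to 0.646 on chromosome 16. Over all reads together the sign depended on the weighting. The pooled level was 26.8% in siCon and 25.6% in siH19 by reads, and 26.0% and 26.3% with the same weight per cytosine, a difference of 0.232 points (0.141 to 0.323).

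The size of a difference went with depth, and both differed between the classes. Unmethylated islands had a median of 481 siCon reads and a median size of 0.845 points. Partly methylated islands had 274 reads and 2.94 points, and methylated islands 201 reads and 2.28 points. The parts of depth and class were not tested. In 312 islands with under 100 reads the median size was 3.91 points, beside a median interval half-width of 11.2 points, and 13.1% differed by 10 points or more. In 199 islands with 1000 reads or more the median size was 0.769 points with a half-width of 1.89, none differed by 10 points, and 97.0% kept their class. A difference no larger than that half-width was not detectable at the depth of these islands.

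**Figure D4:**
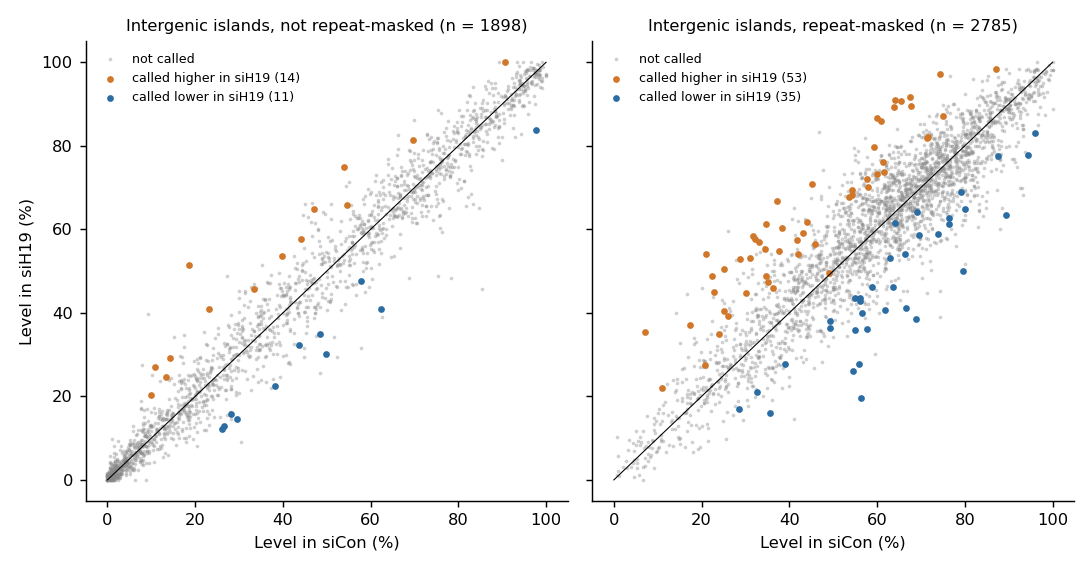
Methylation level of each intergenic island in siH19 (%, vertical axis) against siCon (%, horizontal axis), not repeat-masked on the left and repeat-masked on the right, with called islands in orange (higher in siH19) and blue (lower) and the line of equal levels. The 1898 islands not repeat-masked lie close to the line with 14 called higher and 11 lower, and the 2785 repeat-masked islands scatter more widely with 53 and 35.

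Each island was tested by a Cochran-Mantel-Haenszel (CMH) chi-square test of methylated against unmethylated reads with each cytosine as a stratum, and was called at a Benjamini-Hochberg adjusted p under 0.05 over all 24777 islands and a difference of at least 10 points. Of the 1898 islands, 14 (0.738%) were called higher in siH19, where the share over all islands tested was 0.585%, and 11 (0.580%) lower, against 0.391%. The counts thus stood little above the background in both directions, but that background includes these islands and the repeat-masked ones. Taking both directions together, 1.32% of the 1898 were called. The same share was 0.782% of 3324 gene-body islands and 0.395% of 14418 promoter islands, both without repeats, and no test was made between them. At an adjusted p under 0.05 without the size limit, 39 islands were higher and 28 lower, and 42 of these 67 differed by under 10 points. Another 67 islands differed by 10 points or more without being called, the largest by 23.8 points. Of those called, 12 of the 14 and 10 of the 11 were partly methylated in siCon.

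The read totals showed that neighbouring cytosines shared reads. Of 19364 pairs of neighbouring cytosines on 1 strand within 60 bp and with at least 10 reads, 50.7% had exactly equal read totals in both libraries, and 674 pairs (3.48%), in 336 islands, had totals in a ratio within 0.03 of 2 in both libraries, against 4 pairs at a ratio of 1.5 and none at 2.5 or 3. Whether overlapping ends of a read pair were counted separately there, so that 1 fragment counts as 2 reads, is not given in the sources used here, and the totals of such cytosines may hold fragments counted more than once. When only 1 cytosine per strand and 100 bp was tested, an alternative chosen after seeing the data that left 7645 of the 30560 cytosines, no island of the 1898 was called in either direction and 1 of all 24777. At an unadjusted p under 0.05, 128 (6.74%) of the 1898 still differed in that test, against 271 (14.3%) with all cytosines. Of the 25 called islands, 22 kept their direction, 15 still differed by 10 points or more in it, and 13 had an unadjusted p under 0.05 by the chi-square test. Their median difference in the direction of the call was 12.8 points beside 13.5 with all cytosines, while the median half-width of the interval went from 7.19 to 13.8 points with fewer counts. The cytosines kept were among those that made the calls, in the same 2 libraries. The choice of calls itself thus favours a kept direction, size and low p, and these values are no separate check of the calls. How much of the loss of calls came from shared reads and how much from fewer cytosines was not tested. A test whose error is the spread between the cytosines of an island, also chosen after seeing the data, called 1 higher and 3 lower. A quasi-binomial test called none. It fits 1 level per library, so level differences between the cytosines of an island enter its error. It can therefore miss a shift that all of them share. The calls compare reads of 2 libraries and have no replicate behind them.

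The difference between strands within a library gave a measure of technical spread. In 1638 islands with at least 3 CpGs read on both strands, the CMH test called 61 (3.72%) between the strands of siCon and 35 (2.14%) between the strands of siH19. Between the libraries it called 26 (1.59%) on the plus strand and 27 (1.65%) on the minus strand, and the median size of the difference was 3.09 and 2.88 points between strands and 2.92 and 2.94 points between libraries. The sign of the library difference was the same on both strands in 796 of the 1638 islands (48.6%), with a Pearson's r of 0.009 over islands, which share 2 libraries. Of the 22 called islands read on both strands, 20 had the same sign on both, a property that the choice of calls itself favours.

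The named islands called higher were the 6 with the largest difference among those of 10 or more covered cytosines whose strands had the same sign. The island near the pseudogene Smim34, at chr16:92332385-92332648, went from 56 of 119 reads methylated (47.1%) in siCon to 120 of 185 (64.9%) in siH19, which differed by 17.9 points (7.43 to 28.5; CMH chi-square adjusted p = 0.0292), with 7 of its 10 cytosines higher and 3 equal. Each of these cytosines had 11 to 13 reads in siCon and 13 to 24 in siH19, and with 1 cytosine per strand and 100 bp the difference was 15.9 points (-0.608 to 32.3). Most of it lay on the minus strand, at 27.5 points against 6.76 on the plus strand. The island at chr3:115174929-115175184, 2.88 kb from Gm18429, went from 14.3% (10.9 to 18.6%) to 29.3% (23.9 to 35.3%), with all 12 cytosines higher (CMH chi-square adjusted p = 0.00364). With 1 cytosine per strand and 100 bp the island near Gm18429 differed by 21.4 points (8.69 to 34.2). The CpGs of this island are spread along the stretch printed for Gm18429, and the last of them went from 11 of 44 plus-strand reads methylated in siCon to 17 of 41 in siH19.

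The island at chr11:117091785-117092198, 4.83 kb from the antisense gene Gm11730, had 39.7% and 53.5% (CMH chi-square adjusted p = 0.035). Near Uncx, a homeobox gene of the somites from which the axial skeleton and muscle arise, the island at chr5:139551430-139552180 had 137 of 311 reads methylated (44.1%) in siCon and 320 of 554 (57.8%) in siH19, higher by 13.4 points (6.55 to 20.2; CMH chi-square adjusted p = 0.00793), with 13.2 points on the plus and 13.5 on the minus strand. Its flanks had 35.2% and 39.5%. With 1 cytosine per strand and 100 bp it differed by 4.04 points (-9.96 to 18.05). The strands of the Uncx island were nearly alike, although 2 of its 11 cytosines, each with 10 reads in siCon and 9 in siH19, were lower. The island at chr2:75964468-75964817, 13.4 kb from Ttc30a2, a gene of ciliary transport, had 13.3% and 24.6% (CMH chi-square adjusted p = 0.0164). The island at chr3:96474713-96475641, 7.79 kb from Gm43534, had 51 of 519 reads (9.83%) and 257 of 1270 (20.2%) methylated, a difference of 10.1 points (6.69 to 13.5; CMH chi-square adjusted p = 6.23e-05), with all 15 cytosines higher. It was the called island with the most reads, and 1 of its CpGs moved on the minus strand from 2 of 48 to 32 of 119 reads and on the plus strand from 11 of 59 to 24 of 122. With 1 cytosine per strand and 100 bp the island near Gm43534 differed by 6.40 points (2.20 to 10.6), under the size asked for a call. The difference was also under that size with at least 10 reads per cytosine (9.69), restriction-site cytosines kept (8.61) and strands summed (9.88).

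Only 4 islands called lower met the same conditions. The island at chr9:98972957-98973546, 12.8 kb from Faim, an inhibitor of Fas-driven cell death, went from 89 of 302 reads methylated (29.5%, 24.6 to 34.8%) to 103 of 704 (14.6%, 12.2 to 17.4%), a difference of -14.7 points (-20.5 to -8.86; CMH chi-square adjusted p = 3.59e-05), at -14.3 points on the plus and -15.1 on the minus strand. All 10 of its cytosines were lower and its flanks had 27.5% and 22.0%. It kept its call when the error was taken from the spread between cytosines, and with 1 cytosine per strand and 100 bp differed by -14.6 points (-32.3 to 3.05). Its 5 covered CpGs fit in 49 bases, and read totals doubled along them, from 17 and 59 plus-strand reads in siCon and siH19 at the first pair of CpGs to 34 and 118 at the next 3.

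Near Gata3, a zinc-finger factor of T cells and several organs, the island at chr2:9895853-9896444 had 212 of 438 reads (48.4%) in siCon and 184 of 525 (35.0%) in siH19 methylated, for a difference of -13.4 points (-19.5 to -7.42; CMH chi-square adjusted p = 0.00178), with all 14 cytosines lower. The strands were unequal, at -36.1 points on the plus strand, which had 8 and 10 reads at each CpG, and -10.1 points on the minus strand. With 1 cytosine per strand and 100 bp the island near Gata3 differed by -9.98 points (-26.4 to 6.42). The island at chr2:152723827-152724359, 11.9 kb from Id1, a helix-loop-helix protein that blocks myogenic factors, had 57.7% and 47.6% (CMH chi-square adjusted p = 0.00771), with 15 of 23 cytosines lower and 8 higher, and with 1 cytosine per strand and 100 bp the sign turned, at 6.06 points (-7.07 to 19.2). Its flanks, at 84.7% and 87.7%, were more methylated than the island in both libraries. The island at chr5:120229019-120229511 near Gm42655 had 28.2% and 15.7% (CMH chi-square adjusted p = 0.0119).

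The other called islands had fewer cytosines or strands that disagreed. The largest difference of all, 32.2 points (19.9 to 44.6), was at chr2:170220963-170221562 near the lincRNA Gm17619, where 54 siCon reads over 6 cytosines stood at 18.5% and 142 siH19 reads at 51.4%, with 12.2 points on the plus strand and 55.6 on the minus strand. Each of its cytosines had 8 to 10 reads in siCon. The largest fall was at chr15:95772076-95772277 near Gm8849, from 62.4% to 40.9% over 5 cytosines. With 1 cytosine per strand and 100 bp the differences were 12.8 points (-7.09 to 32.8) near Gm17619 and -21.4 points (-32.1 to -10.7) near Gm8849. Both islands were chosen after their values were seen. At the island near Utp6 the plus strand stood at -22.7 points and the minus strand at 0.388, and at that near Gm17032 the plus strand at 0.528 and the minus strand at -34.4, so neither call held on both strands. With 1 cytosine per strand and 100 bp the sign turned at the islands near Utp6 (5.06 points), Id1 and Gm48483 (6.18 points). The island near Gm42655, named above, kept its sign in that measure, at -15.6 points (-26.1 to -5.01).

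**Figure D5:**
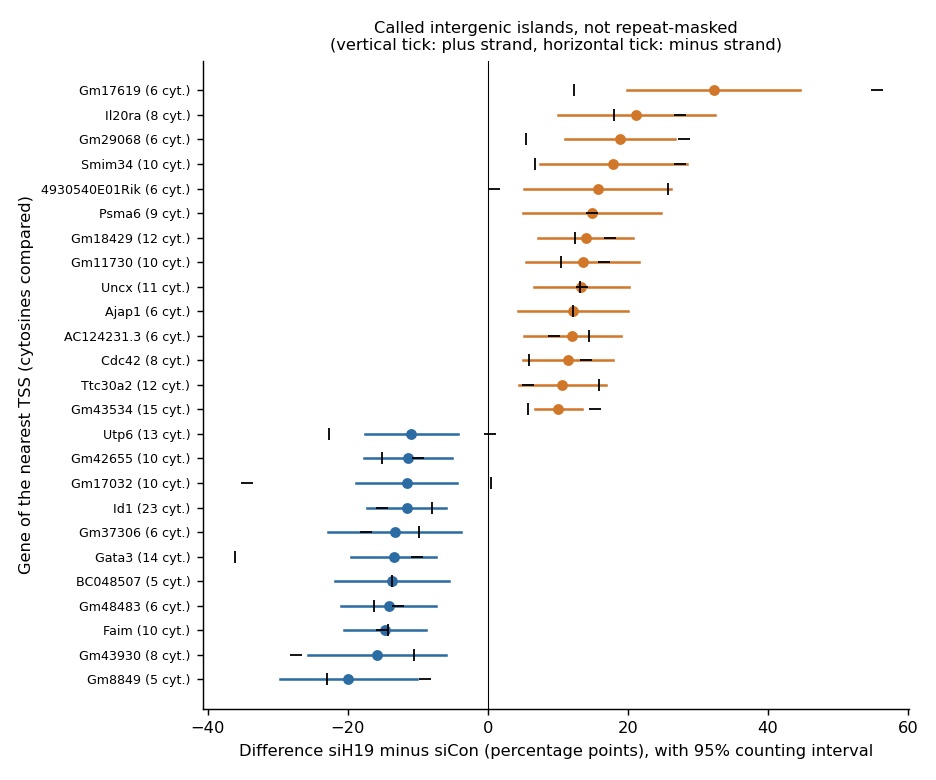
Difference in methylation, siH19 minus siCon (percentage points, horizontal axis), of the 25 called intergenic islands not repeat-masked, named by the gene of the nearest TSS, with the 95% counting interval as a bar, the plus strand as a vertical tick and the minus strand as a horizontal tick. The 14 islands called higher run from 10.1 to 32.2 points and the 11 called lower from -10.9 to -19.9, and the strands lie far apart at several, for example 12.2 and 55.6 points near Gm17619.

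Single cytosines were compared with Fisher's exact test, two-sided, and taken as strongly changed at an unadjusted p under 0.05 and a difference of at least 33 points. Of the 30560 cytosines in islands without repeats, 179 (0.586%) were strongly higher in siH19, beside 0.5% of all autosomal cytosines tested, and 140 (0.458%) strongly lower, beside 0.456%. These shares were close to the background. Only 2 of the 30560 had an adjusted p under 0.05. They were spread over 236 islands, 57 of which held more than 1.

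Repeat-masked intergenic islands were of another kind. Their median level was 62.2% in siCon and 63.4% in siH19, 1.87% and 2.08% were unmethylated and 34.9% and 36.0% methylated. At least 50% of their 31-base words recurred in other islands in 80.2% of them, against 2.58% of the islands without repeats, and the copy a read came from was not checked here. Length went the other way than in islands without repeats, with a methylated share in siCon of 22.9% of 541 islands of 200 to under 300 bp and 46.3% of 188 of 1000 bp or more. The letters AAGATGGCG stood in 23.4% of them and CGGAAG in 29.3%, above the shares in islands without repeats.

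The repeat-masked islands also differed more between the libraries and between strands, at lower depth. They had a median of 135 reads in siCon and 145 in siH19, against 272 and 268.5 without repeats. Among islands with 100 to under 300 reads, the median size of the difference was 3.61 points in 1235 repeat-masked islands and 2.57 points in 881 without repeats, and 4.29% and 1.70% were called. The called shares lay closer together at other depths, at 2.52% and 1.60% under 100 reads and 1.26% and 0.988% at 300 to under 1000 reads. The median sizes there were 5.85 and 3.91 points, and 2.55 and 1.49 points. Their median difference was 0.324 points, 471 of 2785 differed by 10 points or more, and 53 (1.90%) were called higher and 35 (1.26%) lower against the same background of 0.585% and 0.391%. Between the strands of siCon 10.8% of 1408 repeat-masked islands were called, and 9.45% between the strands of siH19. The called islands named by the same rule lay near Megf9 at chr4:70594959-70595406 (28.7% in siCon and 53.0% in siH19), near Gm46610 at chr17:16394380-16394941 (37 of 112 and 111 of 195 reads), near Gm24697 at chr4:69164113-69164317 (57.8% and 36.1%) and near Pudp on chromosome 18 (56.6% and 40.0%). At the first of these the strands stood at 40.9 and 13.4 points. Of the cytosines in repeat-masked islands 1.10% were strongly higher and 0.866% strongly lower, and none had an adjusted p under 0.05.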

How the data were processed

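RRBS was run on 1 siCon and 1 siH19 library, grouped by the labels. Per the methods, reads were aligned with Bismark in non-directional mode within a provider's pipeline, and filled-in bases were trimmed. The labels name bcl2fastq 1.8.4 and mm10, and removal of duplicates is not given in the sources used here. The deposited files held a text field of methylated and total reads per CpG cytosine and strand, without normalization, and a score made by the authors from the methylated fraction, which matched the reads in 100% of entries and served only as that check.

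Islands were scanned in GRCm38 as merged 200 bp windows that met the GC and CpG criteria, which gave 75058 islands, and genes came from the comprehensive GENCODE vM21 annotation (55413 genes, 132697 start sites). All 4668101 cytosines found in both libraries fell on a CpG of GRCm38. Strands were kept apart. Coordinates count from 1. An island near a gene means near the gene of its closest TSS. Islands were named by size of difference among calls, by class or level range and number of cytosines, or by closeness to a listed gene. The CMH test, Fisher's exact test and Wilson intervals used Python 3.11.15, numpy 2.4.6, scipy 1.17.1 and pandas 2.3.3, and were tested on simulated data. The test compares 2 libraries and not 2 conditions. The members and lists were chosen with earlier results of these data known. Alternatives varied read and cytosine minimums, strands, sites, island scan, distance, repeat limit, weighting, class limits and test. One listed gene is not reported here.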

Additional observations from a re-analysis of the deposited data

How the results depend on the processing

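The shares of islands by class depended on which islands and cytosines entered, while the near equality of the libraries did not. The unmethylated share, 23.8% in siCon and 23.0% in siH19, was 26.4% and 25.8% with at least 10 reads per cytosine, 27.2% and 26.6% with strands summed per CpG, 29.6% and 29.1% with at least 10 cytosines per island, 19.5% and 18.3% beyond 10 kb from every TSS, 21.5% and 20.9% with any soft-masked base counted as a repeat, and 34.6% and 34.4% with class limits of 20% and 80%. It was 41.4% and 40.5% with the scan that scores CpGs and, chosen after seeing the data, 21.2% and 20.5% without islands in or near RefSeq gene models. With restriction-site cytosines kept it was 1.61% and 1.83%. In the order of these settings the methylated share in siCon, 24.2%, was 21.4%, 20%, 17.8%, 27.0%, 27.5% and 15.3%, then 9.63% with the scoring scan and 27.9% with restriction-site cytosines, and 22.2% when islands from 20% soft-masked counted as repeats. These settings change the set of islands or cytosines, and other causes were not tested.

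The median difference of 0.140 points was 0.331 with restriction-site cytosines kept, and that of repeat-masked islands, 0.324, was 0.6004. The pooled difference of 0.232 points was 0.378 with those cytosines, 0.490 with any soft-masked base counted as a repeat, and reversed to -1.21 when weighted by reads. The 14 higher and 11 lower calls became 8 and 5 with strands summed, 3 and 6 with the scoring scan, 6 and 6 with at least 10 cytosines, and 4 and 4 with any soft-masked base counted as a repeat. Calls higher were 9 beyond 10 kb. Fisher's exact test on summed reads called 30 and 39, a quasi-binomial test 0 and 0, and a minimum of 20 points 2 and 0. Of alternatives chosen after seeing the data, the error from the spread between cytosines gave 1 and 3, and 1 cytosine per strand and 100 bp gave 0 and 0. The 854 strongly changed cytosines of all intergenic islands were 435 with at least 10 reads and 1546 with restriction-site cytosines. Of the 14 islands named for a call, that near Id1 reversed to 6.06 points with 1 cytosine per strand and 100 bp, which was computed for those without repeats, and none reversed with the settings planned. Of the 14, 5 lost the call with restriction-site cytosines kept, 3 with at least 10 reads, 2 with unweighted means and 1 with strands summed, and 1 had no value with at least 10 reads. No paired analysis was possible because each group had 1 library.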

Other observations

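The sex chromosomes were left out above. On the X, 43 intergenic islands without repeats had a median level of 36.1% in siCon and 41.1% in siH19, with 5 and 6 unmethylated, 23 higher and 20 lower in siH19, and a median difference of 0.425 points. The 332 repeat-masked intergenic islands of the X stood at 57.5% and 59.2%. The 429 promoter islands of the X without repeats had a median of 29.1% and 31.1% and 265 were higher in siH19, with a median difference of 1.31 points, whereas promoter islands on autosomes had a median level of 1.86%. On the Y, 5 intergenic islands without repeats had medians of 47.4% and 55.1%, and 26 repeat-masked ones 56.8% and 56.9%. Depth and weighting were not compared between autosomes and sex chromosomes.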
